A study of Mus musculus with 18 samples.

Results

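Cholesterol synthesis and its sterol control were followed through 32 named genes, taken by symbol from a table of 52636 mouse genes in which all 32 were found. They comprised 18 enzymes of the synthesis route, 5 genes of the SREBP switch, 4 genes of sterol transport and 5 genes of LXR signaling and efflux. The study compared epidermal cells of Zfp36 fl/fl mice with those of Zfp36 ΔK14 mice, their littermates, in which a Cre under the human keratin 14 promoter removes Zfp36 from keratin 14-expressing cells. Zfp36 encodes tristetraprolin, an RNA-binding protein that promotes the decay of AU-rich mRNAs. For each genotype 3 kinds of cells were sampled, those of mock-treated skin, those of DMBA- and TPA-treated skin that lay beside tumors and held none (treated skin), and those of papillomas (tumors), with 3 columns of counts per group. DMBA is the carcinogen that starts the tumors and TPA the promoter that makes them grow. All animals carried floxed Zfp36 on a C57BL/6 background, and their age is not in the labels. According to the methods the cells were sorted as live, EpCAM positive and negative for CD45, CD140a and CD31, whereas the labels name whole skin as the source and call the cells of treated skin tumoral. Keratin 14 marks the basal layer and its progeny, so the Cre also acts in hair follicle and sebaceous gland cells that descend from it.

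Cholesterol is made from acetyl-CoA. Acat2 and Hmgcs1 act at its start, the mevalonate enzymes (Mvk, Pmvk, Mvd, Idi1, Fdps) make farnesyl pyrophosphate, Fdft1, Sqle and Lss build lanosterol, and the remaining enzymes trim lanosterol to cholesterol. SREBP-2, encoded by Srebf2, activates these genes when sterols in the endoplasmic reticulum are low: Scap carries it to the Golgi for cleavage, and Insig1 and Insig2 hold it back. LXR, encoded by Nr1h2 and Nr1h3, responds to oxysterols and activates the efflux pumps Abca1 and Abcg1 and Mylip, an E3 ligase that lowers lipoprotein uptake. In skin, cholesterol serves the barrier of the outer epidermis and the sebum of the sebaceous glands.

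Because SREBP acts on promoters together with NF-Y, the RefSeq promoter windows of GRCm38.p6 (250 bases before to 50 after the start) were searched on both strands for TCACNCCAC (a sterol response element), CCAAT (the NF-Y box) and GGGCGG (a GC box, bound by Sp1). Windows were at hand for 26 of the 32 genes. CCAAT was in a window of 21 of the 26 (80.8%), against 41.1% of 27025 genes and 42.8% of 10015 genes with a mean count of at least 10. GGGCGG was in 23 of 26 (88.5%), against 38.2% of all genes and 68.6% of those with a mean count of at least 10. TCACNCCAC was in 1 of 26 (3.85%), against 1.44% and 1.45%. That gene was Hmgcs1, whose match began 137 bases before the start (position -137). CCAAT can share its last letter with the first of TCACNCCAC, and ATTGG its last letters with GGGCGG. A match is a description only. Shown here are Hmgcs1, for its sterol response element, Msmo1 and Hsd17b7, the enzymes called higher in fl/fl tumors against both treated and mock skin, and Nsdhl, among the genes with the smallest p in the genotype comparisons. The windows are read 5′ to 3′ on the strand of the gene, and capitals mark TCACNCCAC and CCAAT or its reverse complement ATTGG.
Hmgcs1, chr13:119690101-119690400, plus strand: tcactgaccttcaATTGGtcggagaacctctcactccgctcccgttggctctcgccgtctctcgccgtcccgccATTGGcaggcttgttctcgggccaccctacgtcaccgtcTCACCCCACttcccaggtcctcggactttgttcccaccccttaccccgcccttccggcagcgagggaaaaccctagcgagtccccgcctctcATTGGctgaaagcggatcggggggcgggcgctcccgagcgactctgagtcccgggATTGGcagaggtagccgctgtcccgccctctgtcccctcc
Msmo1, chr8:64733529-64733828, minus strand: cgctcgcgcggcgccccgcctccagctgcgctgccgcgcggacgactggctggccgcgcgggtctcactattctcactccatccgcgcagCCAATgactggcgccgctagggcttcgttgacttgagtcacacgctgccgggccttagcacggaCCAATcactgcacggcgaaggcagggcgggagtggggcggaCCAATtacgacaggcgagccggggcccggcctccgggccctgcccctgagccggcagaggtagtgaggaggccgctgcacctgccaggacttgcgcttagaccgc
Hsd17b7, chr1:169969156-169969455, minus strand: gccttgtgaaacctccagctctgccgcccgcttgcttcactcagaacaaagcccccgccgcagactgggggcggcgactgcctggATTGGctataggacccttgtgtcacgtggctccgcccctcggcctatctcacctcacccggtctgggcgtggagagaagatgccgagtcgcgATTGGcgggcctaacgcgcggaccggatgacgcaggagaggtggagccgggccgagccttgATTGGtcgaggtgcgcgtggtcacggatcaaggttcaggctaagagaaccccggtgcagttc
Nsdhl, chrX:72918271-72918570, plus strand: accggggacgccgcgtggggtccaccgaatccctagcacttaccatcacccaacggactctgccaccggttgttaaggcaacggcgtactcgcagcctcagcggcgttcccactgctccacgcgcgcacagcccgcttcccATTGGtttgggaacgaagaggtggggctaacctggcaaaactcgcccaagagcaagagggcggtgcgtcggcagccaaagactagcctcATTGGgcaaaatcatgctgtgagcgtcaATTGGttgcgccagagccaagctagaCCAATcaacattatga
The 4 windows hold 4, 3, 3 and 4 NF-Y boxes in this order. They were taken from windows with at least 3 such boxes, so their numbers do not stand for the other genes. Among those, Lss and Cyp51 hold 1, Ebp and Npc2 hold 2, Mylip holds 3 and Mvk holds 5.

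Several libraries stood apart before any test. Mock ΔK14 replicates 2 and 3 held the same count for each gene and entered as a single library, so that 17 libraries remained and mock ΔK14 had n = 2. The libraries held 2808550 to 9617985 counts (median 5567614). Zfp36 was at 151 to 713 CPM (counts relative to the TMM-scaled size of a library) in the fl/fl libraries and at 38.4 CPM or less in the ΔK14 libraries. The smallest library was fl/fl tumor replicate 1, which also had the fewest genes with a count (19219) and the largest share of ribosomal RNA (21.3%, against 6.44% in the lowest library). The 10 sebaceous gland markers summed to 151 CPM in that library and to 1831 and 2471 CPM in fl/fl tumor replicates 2 and 3, against 115 to 166 CPM in the ΔK14 tumors. The 5 keratinocyte markers (Krt5, Krt14, Epcam, Trp63, Cdh1), present in every library, summed to 29156 CPM in fl/fl tumor replicate 1, 8422 and 8509 CPM in replicates 2 and 3, and 22130 to 23272 CPM in the ΔK14 tumors. By these lists fl/fl tumor replicate 1 was near the ΔK14 tumors and the other fl/fl tumors were not. Mock replicate 1 of both genotypes also stood apart, with keratinocyte markers at 2974 and 3041 CPM against 12782 to 13885 CPM in the other mock libraries. Over all libraries fibroblast markers summed to 30.3 to 1671 CPM, leukocyte markers to 9.76 to 176 CPM and endothelial markers to 8.60 to 38.9 CPM. In bulk RNA of sorted cells, more cells of a type and more RNA per cell cannot be told apart.

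**Figure D1:**
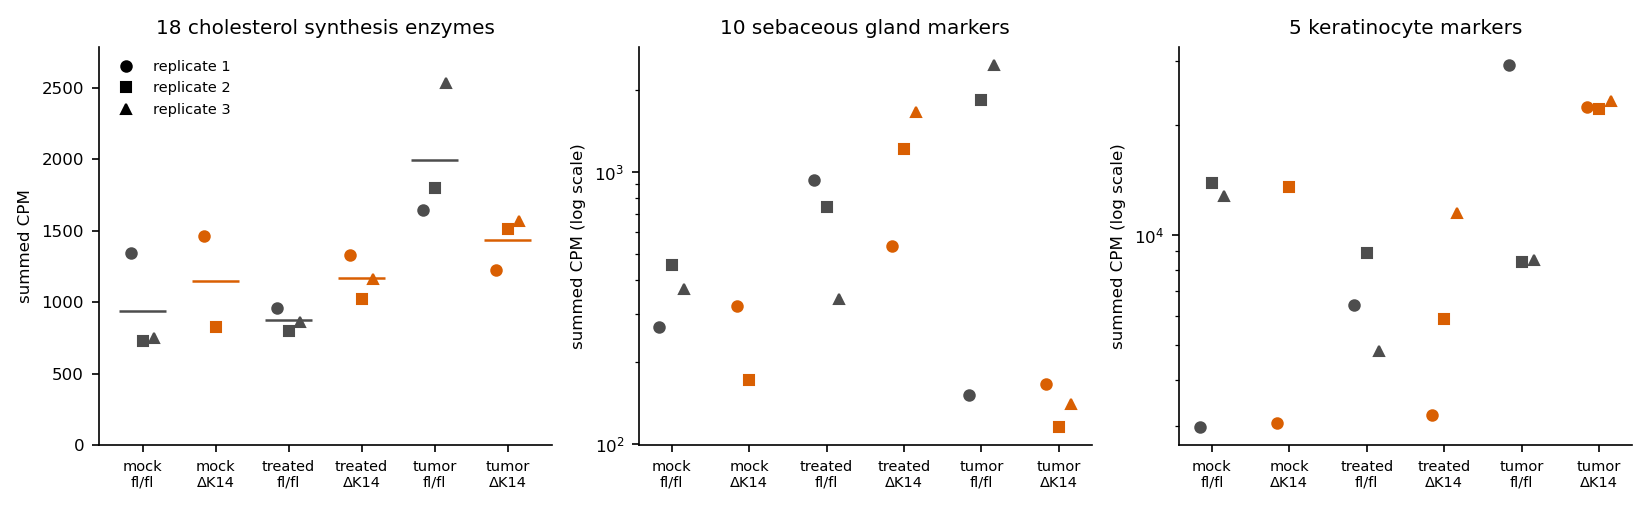
Summed CPM per library of the 18 cholesterol synthesis enzymes (left, linear axis with group means as lines), the 10 sebaceous gland markers and the 5 keratinocyte markers (middle and right, log axes), with fl/fl in grey and ΔK14 in orange. The fl/fl tumors have the 3 highest enzyme sums (1648, 1802 and 2534 CPM), and 2 of them have the 2 highest sebaceous sums.

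Per length, the enzyme with the highest group mean was Hmgcs1, which makes HMG-CoA, in 5 of 6 groups (43.1 to 77.3 RPKM, which is CPM per kilobase of exon). In ΔK14 tumors it was Cyp51, the lanosterol demethylase (54.1 RPKM). Tm7sf2, a sterol reductase, was the lowest enzyme in all 6 groups (1.62 to 1.99 RPKM). Among the SREBP genes, Srebf2 was highest in 5 of 6 groups and Scap in fl/fl tumors (27.8 RPKM). Insig2 was the lowest of them in 4 groups, the exceptions being both groups of treated skin. Among the transport genes Npc1 was highest in the 4 groups of skin (at most 13.8 RPKM) and Npc2, which hands cholesterol on in the late endosome, in both groups of tumors (29.7 and 42.0 RPKM). The lysosomal lipase Lipa was lowest in all 6 groups. The order of the LXR genes changed with the group, with Mylip highest in 3 groups, Abca1 in 2 and Nr1h2 in ΔK14 tumors. Nr1h3 had a mean of 0.330 RPKM and at most 17 counts in a library. Nr1h3 had no count in fl/fl tumor replicate 1 and ΔK14 tumor replicate 2, where 3 counts would be 1.503 and 0.543 CPM, and it passed the filter on low counts in 1 of 11 comparisons. The other 31 genes passed it in every comparison. Nr1h2, the other LXR, was read at 18.3 to 41.3 CPM.

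Tumors were first set against treated skin within each genotype. In fl/fl mice, 11 of 31 genes tested were called (more than 2-fold apart with an adjusted p below 0.05 by edgeR's quasi-likelihood test), of which 9 rose and 2 fell. Of all genes tested, 7.5% were called higher and 10.5% lower. Of the 18 enzymes, 8 rose, and 16 had a log2 fold change above 0. The enzymes' median log2 fold change was 1.07, and that of all genes -0.02. The called enzymes were Idi1 and Fdps of the isoprenoid steps, and Cyp51, Msmo1, Nsdhl, Hsd17b7, Ebp and Dhcr7 of the steps after lanosterol. Acat2, at the start of the route, was called higher by DESeq2 and by edgeR's exact test. Pmvk and Mvd were called higher with no filter on low counts. The calls thus do not set a part of the route apart. As a sum, the 18 enzymes stood at 956, 799 and 860 CPM in fl/fl treated skin and at 1648, 1802 and 2534 CPM in fl/fl tumors, with no overlap.

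Hsd17b7, the 3-ketosteroid reductase of the C4 demethylation, was read at 30.3, 33.2 and 22.1 CPM in fl/fl treated skin and at 86.6, 132 and 206 CPM in fl/fl tumors. Its log2 fold change was 2.30 ± 0.34 (SE), with an edgeR adjusted p of 0.00461. Msmo1, the C4 methyl oxidase of the same complex, went from 94.9, 64.2 and 70.7 CPM to 229, 289 and 323 CPM. Its log2 fold change was 1.84 ± 0.24 (edgeR adjusted p 0.00286). In both genes every tumor was above every treated skin library, and both calls held when any 1 library was left out. Nsdhl, the third enzyme of that complex, rose from 26.4, 24.5 and 23.0 CPM to 39.6, 42.9 and 73.8 CPM (log2 fold change 1.06 ± 0.28, edgeR adjusted p 0.0308), with the highest value in replicate 3. Leaving out 1 library in turn kept its call in 2 of 6 fits.

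Cyp51 stood at 136, 101 and 126 CPM in fl/fl treated skin and 238, 325 and 432 CPM in fl/fl tumors (log2 fold change 1.43 ± 0.27, edgeR adjusted p 0.00996). Ebp, the sterol isomerase, stood at 12.9, 16.4 and 9.63 CPM and then at 40.6, 30.7 and 28.1 CPM (log2 fold change 1.33 ± 0.26, edgeR adjusted p 0.0111). Cyp51 kept its call in all 6 fits without 1 library, and Ebp in 5 of them. The other called enzymes rested more on single libraries. Idi1 (1.49 ± 0.39), Fdps (1.14 ± 0.23) and Dhcr7 (1.36 ± 0.42), the last enzyme of the Kandutsch-Russell branch, kept their calls in 2, 2 and 1 of the 6 fits. Hmgcs1, Fdft1, Sqle and the SREBP escort Scap passed the adjusted p but not the fold (log2 fold changes 0.82, 0.79, 0.89 and 0.89). Mvk and Tm7sf2 had values close to 0 (-0.07 and -0.08) that took either sign under other settings.

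Outside the enzymes, Npc2 had the smallest p. It was read at 42.2, 47.9 and 36.2 CPM in fl/fl treated skin and 174, 136 and 174 CPM in fl/fl tumors (log2 fold change 1.91 ± 0.19, edgeR adjusted p 0.00158). Its partner Npc1, the membrane protein that takes cholesterol from it, was not called (-0.68 ± 0.31). Insig2, which holds SREBP in the endoplasmic reticulum, fell from 59.3, 70.6 and 104 CPM to 22.5, 26.8 and 23.5 CPM (log2 fold change -1.71 ± 0.26, edgeR adjusted p 0.00483). Insig1, its counterpart that is itself an SREBP target, was at 55.4, 47.2 and 66.6 CPM and then at 93.2, 62.5 and 93.1 CPM, which was not called (0.52 ± 0.24). Srebf1 and Srebf2 had log2 fold changes of 0.20 and 0.08. Abcg1 fell from 9.30, 12.0 and 5.60 CPM to 0.501, 1.98 and 0.653 CPM (-2.84 ± 0.53, edgeR adjusted p 0.00998), and the tumor values rest on 1, 13 and 2 counts. Npc2, Insig2 and Abcg1 kept their calls without any 1 library.

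The fl/fl tumors differed among themselves, and the result was fitted without either kind. Without fl/fl tumor replicate 1, 14 genes were called higher and 2 lower, where 10.4% and 13.8% of all genes were. Without fl/fl tumor replicates 2 and 3, which left 1 tumor whose spread is assumed to be that of the treated skin, 6 genes were called higher and 4 lower, where 11% and 13.1% of all genes were. The 6 were Sqle, Msmo1, Hsd17b7, Ebp, Sc5d and Npc2. In that library, whose sebaceous markers were at 151 CPM, the log2 fold changes of Msmo1, Hsd17b7, Ebp and Npc2 against treated skin were 1.56, 1.59, 1.65 and 2.03. The 4 lower genes were Insig2, Abca1, Abcg1 and Npc1. Sebaceous markers summed to 341 to 932 CPM in fl/fl treated skin, and fibroblast markers to 375 to 622 CPM there against 82.6 to 197 CPM in the fl/fl tumors. The melanocyte list gave 41.3 to 93.5 CPM and 8.82 to 24.2 CPM. The part of these other cell types in the changes was not tested.

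**Figure D2:**
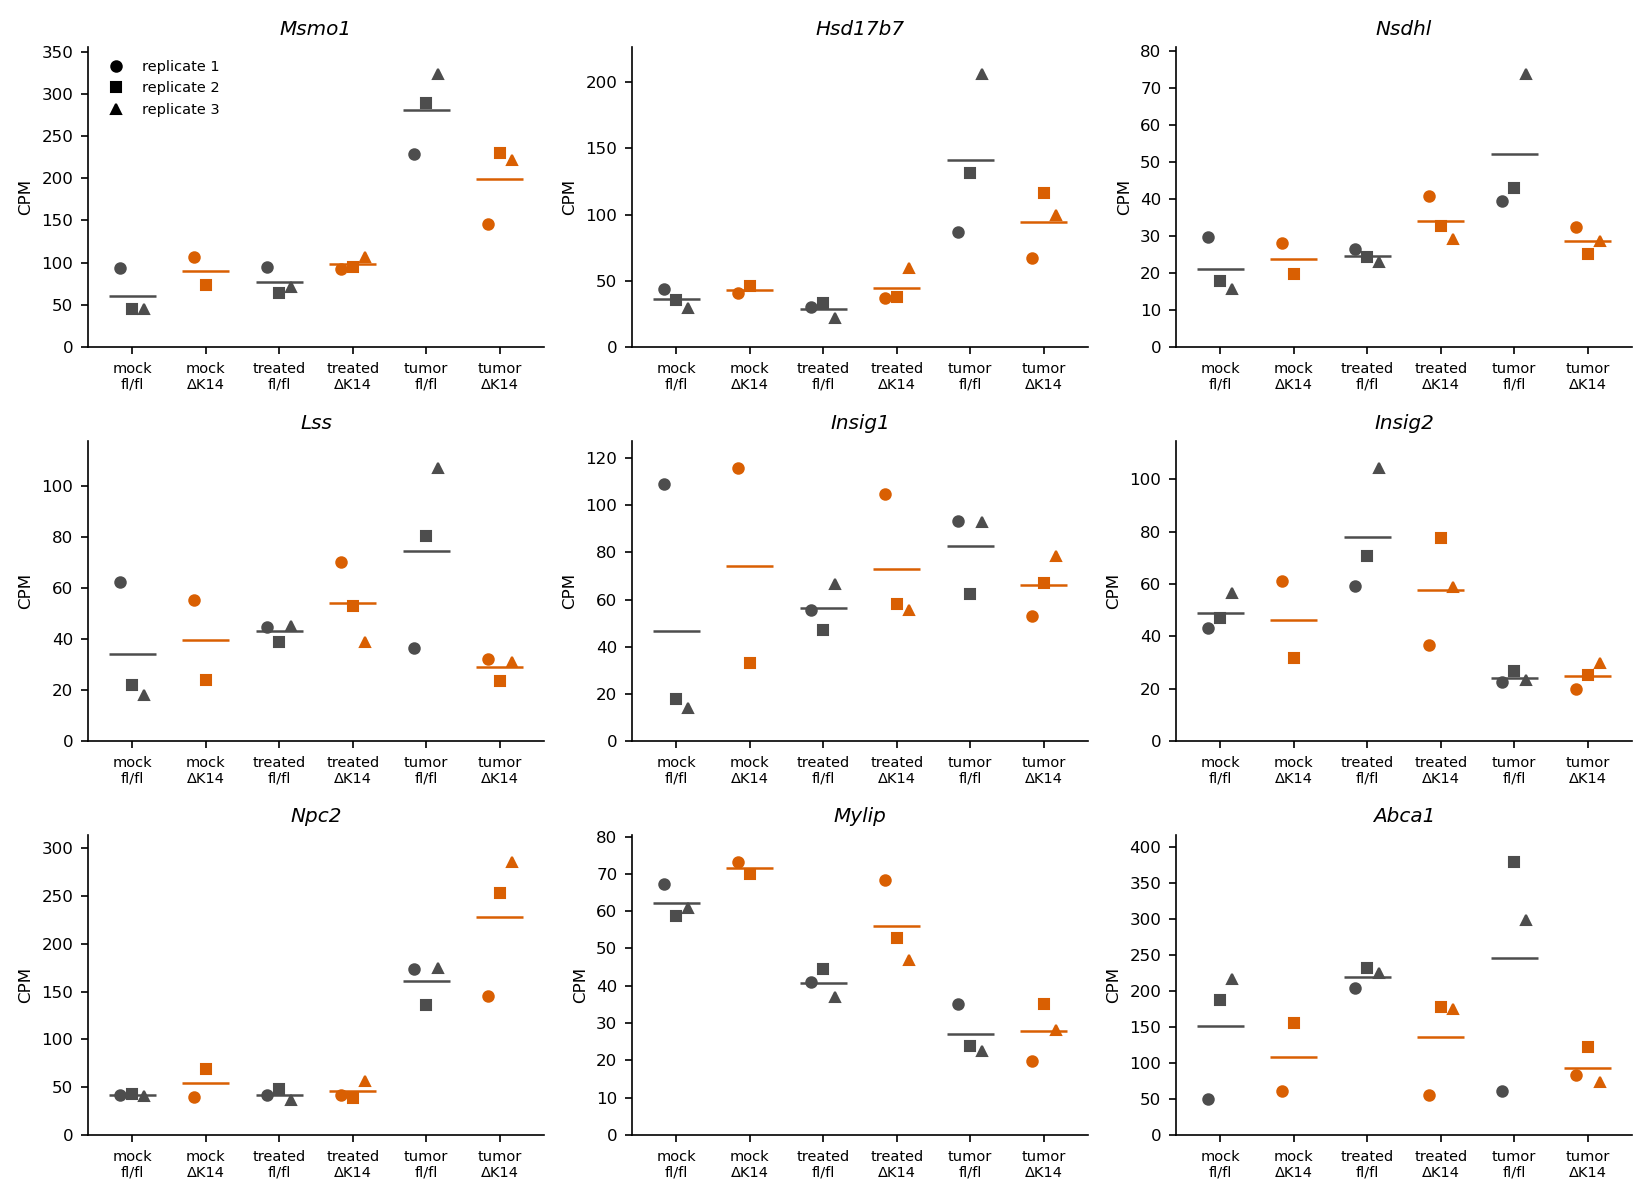
CPM in each library of 3 enzymes of C4 demethylation (Msmo1, Hsd17b7, Nsdhl), the lanosterol synthase Lss, both Insig genes, Npc2, Mylip and Abca1, with fl/fl in grey, ΔK14 in orange, lines at group means and symbols for replicates. Npc2 is at 136 CPM or more in all 6 tumors and at 68.6 CPM or less elsewhere, Insig2 is at 29.8 CPM or less in tumors, and Lss and Abca1 are high in fl/fl tumor replicates 2 and 3 only among the tumors.

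In ΔK14 mice, 4 of 31 genes were called between tumors and treated skin, 1 higher and 3 lower, where 10.5% of all genes were called higher and 15.5% lower. Npc2 was the riser, from 42.4, 38.3 and 56.1 CPM to 146, 254 and 286 CPM (log2 fold change 2.23 ± 0.26, edgeR adjusted p 8.18e-04). Insig2 fell from 36.8, 77.4 and 58.8 CPM to 19.9, 25.2 and 29.8 CPM (-1.32 ± 0.30, edgeR adjusted p 0.00944). Both changed in the same direction as in fl/fl mice, and both calls held without any 1 library. Mylip fell from 68.3, 52.9 and 47.0 CPM to 19.9, 35.1 and 28.2 CPM (-1.11 ± 0.25, edgeR adjusted p 0.00913) and kept its call in 4 of 6 fits. Lss, which closes squalene epoxide to lanosterol, fell from 70.2, 53.0 and 38.8 CPM to 32.1, 23.4 and 30.9 CPM (-1.01 ± 0.26, edgeR adjusted p 0.0169) and kept its call in 2 of 6 fits. Lss thus sits close to the fold of 2.

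The enzymes as a list did not share the direction they had in fl/fl mice. Of 18, 6 had a log2 fold change above 0 and 12 below, with a median of -0.15 beside -0.03 for all genes. Msmo1 (0.92 ± 0.20), Hsd17b7 (0.99 ± 0.25) and Sc5d, the lathosterol desaturase (0.84 ± 0.17), passed the adjusted p with a fold under 2. The sum of the 18 enzymes was 1329, 1021 and 1161 CPM in ΔK14 treated skin and 1227, 1513 and 1571 CPM in ΔK14 tumors, which overlapped. Lipa passed the adjusted p without the fold as well (0.88 ± 0.29). Sebaceous markers summed to 535 to 1667 CPM in ΔK14 treated skin and 115 to 166 CPM in ΔK14 tumors, and their part in these changes was not tested.

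Whether the tumor change differed between the genotypes was tested as an interaction, the change in ΔK14 minus that in fl/fl. By edgeR's quasi-likelihood test 0 of 31 genes were called (0.0118% of all genes were), and the smallest adjusted p was 0.207. At an unadjusted p under 0.05 there were 14 of 31, 13 of them negative, against 2243 of 17017 genes (7.37% of all genes were negative at that p). DESeq2 called 3, Fdps, Lss and Nsdhl, all negative, where it called 1.35% of all genes. Of the enzymes 17 of 18 were below 0, with a median of -1.06 beside -0.05 for all genes. The 5 genes with the smallest p were Fdps (-1.40 ± 0.34), Nsdhl (-1.39 ± 0.36), Lss (-1.77 ± 0.47), Acat2 (-1.52 ± 0.44), the thiolase at the start of the route, and Idi1 (-1.56 ± 0.47). Reads of Acat2 may be split with Acat3, a near-identical mouse copy, so its value is uncertain.

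Calls in the interaction depended on which fl/fl tumors were in the fit. The interaction also holds the genotype difference of treated skin, where the enzymes' median was 0.46, against -0.71 in tumors. Without fl/fl tumor replicate 1, 11 enzymes were called, all negative, where 4.04% of all genes were called negative and 3.49% positive. They were Acat2, Pmvk, Mvd, Idi1, Fdps, Fdft1, Lss, Cyp51, Nsdhl, Hsd17b7 and Dhcr7, with values from -1.11 (Fdft1) to -2.08 (Lss). Without fl/fl tumor replicates 2 and 3, 0 genes were called by edgeR, where 0.0161% of all genes were called positive and 0% negative. With 1 fl/fl tumor left, this count cannot show that the tumor changes were alike. The enzymes' median was then -0.55, with 17 of 18 below 0, beside 0.20 for all genes. The sebaceous marker values given above separate the same libraries, and their part in the interaction was not tested.

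**Figure D3:**
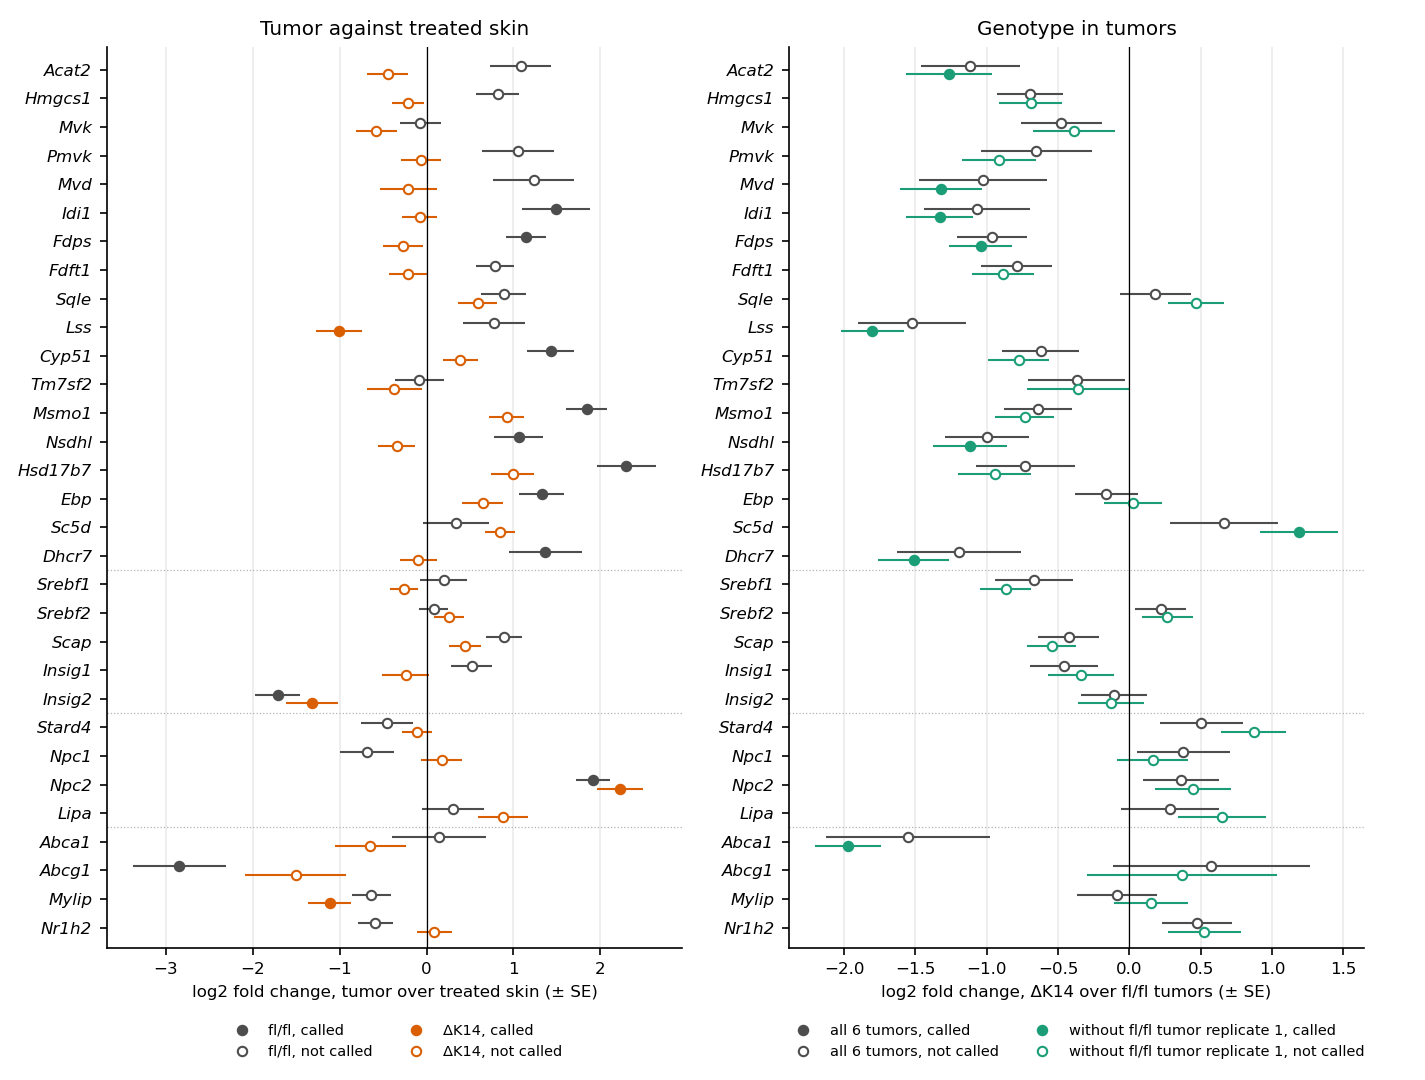
Log2 fold changes with SE of 31 genes (edgeR), in tumors over treated skin within each genotype (left) and in ΔK14 over fl/fl tumors with all 6 tumors and without fl/fl tumor replicate 1 (right). Filled points were called, dotted lines separate enzymes, SREBP genes, transport and LXR genes. On the left most fl/fl enzymes lie right of 0 and 12 of 18 ΔK14 enzymes left of it, and on the right 9 genes are called only when replicate 1 is left out.

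Comparing the tumors directly, 0 of 31 genes were called by edgeR's quasi-likelihood test, where 0.0213% of all genes were called higher in ΔK14 and 0.00711% lower. At an unadjusted p under 0.05, 12 of 31 were lower in ΔK14, as were 7.16% of all genes, and none higher. DESeq2 and edgeR's exact test each called 1, Lss, where they called 2.6% and 2.33% of all genes. Without the filter on low counts 3 were called, where 4.27% of all genes were. Of the enzymes, 16 of 18 were below 0 (median -0.71, all genes -0.02). Values of 6 genes, all enzymes, were lower in every ΔK14 than in every fl/fl tumor, as for 4.23% of all genes: Acat2, Hmgcs1, Fdps, Fdft1, Lss and Nsdhl. Srebf2, Stard4 and Nr1h2 were higher in every ΔK14 tumor, as for 13.7% of all genes.

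Lss had the smallest p, at 36.6, 80.2 and 107 CPM in fl/fl tumors and 32.1, 23.4 and 30.9 CPM in ΔK14 tumors (log2 fold change -1.52 ± 0.38, edgeR adjusted p 0.209). Fl/fl tumor replicate 1 was near the ΔK14 values and the other fl/fl tumors were far above. Fdps, the farnesyl pyrophosphate synthase, stood at 89.2, 92.1 and 141 CPM against 54.5, 57.2 and 71.1 CPM (-0.96 ± 0.25, edgeR adjusted p 0.209). Nsdhl stood at 39.6, 42.9 and 73.8 CPM against 32.4, 25.2 and 28.8 CPM (-0.999 ± 0.29), Acat2 had -1.11 ± 0.35, and Fdft1, the squalene synthase, -0.79 ± 0.25. For Fdps and Nsdhl replicate 1 was with the other fl/fl tumors, above the ΔK14 tumors. Fdft1 overlaps Ctsb, Cyp51 overlaps Akap9 and Srebf1 overlaps Rai1, each on the opposite strand. The use of strand in counting is not given in the sources used here, so their reads are uncertain. On the same strand, Fdps overlaps Gm22935 and Gm43738, Tm7sf2 overlaps Vps51 and Srebf2 overlaps Gm49502, which strand cannot separate. Other genes of the 32, such as Npc1 with Rmc1, have overlaps too.

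Without fl/fl tumor replicate 1, 9 of 31 genes were called, 1 higher and 8 lower in ΔK14, where 7.32% and 9.58% of all genes were. The 8 were the enzymes Acat2, Mvd, Idi1, Fdps, Lss, Nsdhl and Dhcr7, at -1.04 to -1.80, and Abca1 (-1.97 ± 0.23). The gene called higher was Sc5d (1.19 ± 0.27), 1 of 3 enzymes above 0 in this fit with Sqle (0.47 ± 0.20) and Ebp (0.02 ± 0.20), while 15 were below. It stood at 78.6, 24.2 and 45.7 CPM in fl/fl tumors and 71.9, 90.2 and 91.8 CPM in ΔK14 tumors. Without fl/fl tumor replicates 2 and 3, 0 genes were called by edgeR, where 0.0334% of all genes were called higher and 0.127% lower. With 1 fl/fl tumor left, this count cannot show that the genotypes were alike. The enzymes' median was then -0.29, and 13 of 18 were below 0. Abca1 went with the library: 60.6 CPM in fl/fl replicate 1, 379 and 299 CPM in the other fl/fl tumors, and 83.2, 123 and 73.7 CPM in ΔK14 tumors.

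Markers of other lipid-making cells were read beside these values. Sebaceous markers summed to 151, 1831 and 2471 CPM in fl/fl tumor replicates 1 to 3, and the enzymes to 1648, 1802 and 2534 CPM. In the ΔK14 tumors sebaceous markers summed to 115 to 166 CPM, and the enzymes to 1227, 1513 and 1571 CPM. Of the 10 sebaceous markers 4 passed the filter, with a median log2 fold change of -4.61 between ΔK14 and fl/fl tumors, and 0 were called. Of the list, Awat1, Mc5r and Dgat2l6 were most often at 0, in 9, 6 and 7 of the 17 libraries. The highest values of Awat2, Elovl3, Far2 and Krt79 in any of the 17 libraries were 46.4, 102, 622 and 1504 CPM. The fl/fl tumors had counts for 6, 10 and 9 of the 10 markers, and the ΔK14 tumors for 7, 6 and 6. The 13 fatty acid synthesis genes summed to 1244, 6035 and 10386 CPM in fl/fl tumor replicates 1 to 3 and to 1418 to 1649 CPM in ΔK14 tumors. The keratinocyte list was lower in fl/fl tumor replicates 2 and 3, as given above, and proliferation genes summed to 1449, 609 and 576 CPM in the fl/fl tumors and 1092 to 1743 CPM in the ΔK14 tumors. Leukocyte markers summed to 15.5 to 34.1 CPM in fl/fl and 59.7 to 89.7 CPM in ΔK14 tumors. Their part in the genotype values was not tested.

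Tumors were also set against mock skin, a comparison that shares its tumor libraries with the preceding ones. In fl/fl mice 3 of 31 genes were called, all higher, where 2.22% of all genes were called higher and 1.88% lower. Npc2 went from 41.7, 42.4 and 41.1 CPM in mock skin to the tumor values given above (log2 fold change 1.92 ± 0.24, edgeR adjusted p 0.0124). Msmo1 started at 93.1, 45.2 and 44.8 CPM (2.17 ± 0.38, edgeR adjusted p 0.0275) and Hsd17b7 at 43.8, 35.2 and 29.4 CPM (1.95 ± 0.38, edgeR adjusted p 0.0382). All mock values of the 3 genes were below all tumor values. Abcg1 (-4.32 ± 0.95) and Mylip (-1.24 ± 0.27) just missed, each with an edgeR adjusted p of 0.0504. Abcg1 was at 3.65, 32.7 and 35.4 CPM in mock skin.

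In ΔK14 mice Npc2 and Ebp were called higher and Mylip lower in tumors than in mock skin, where 7.05% of all genes were called higher and 7.22% lower. Mylip was at 73.1 and 70.0 CPM in mock skin (log2 fold change -1.46 ± 0.29, edgeR adjusted p 0.0265) and Npc2 at 39.9 and 68.6 CPM (1.98 ± 0.40, edgeR adjusted p 0.0275). Ebp went from 12.7 and 15.4 CPM to 35.3, 30.2 and 31.5 CPM (1.11 ± 0.29, edgeR adjusted p 0.0468). Hsd17b7 and Msmo1 were next by p, at 1.03 ± 0.30 and 1.05 ± 0.32, and were not called. The interaction of genotype with tumor against mock skin gave 0 of 32 calls by edgeR (0% of all genes), and 2 of 32 had an unadjusted p under 0.05 (1423 of 17388 over all genes), and DESeq2 called 0. Its smallest p values were those of Dhcr7 (-1.40 ± 0.58), Fdps (-1.33 ± 0.58), Msmo1 (-1.10 ± 0.50), Nsdhl (-1.08 ± 0.51) and Lss (-1.62 ± 0.80), all negative.

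The mock libraries bear directly on these counts, since replicate 1 of each genotype was above the others in the enzyme sum and below them in the sum of the LXR genes. The enzymes summed to 1342, 730 and 747 CPM in fl/fl mock skin and 1465 and 829 CPM in ΔK14 mock skin. The 5 LXR genes summed to 153, 306 and 351 CPM and to 168 and 286 CPM. Not all of the 5 were lower in replicate 1. Relative to the mean of the other mock libraries, Mylip was at 1.13 in fl/fl and 1.04 in ΔK14 mice, and Nr1h2 at 1.02 and 0.79. In both genotypes 7 of 32 genes (21.9%), namely Insig1 and 6 enzymes, were over 2-fold higher in replicate 1 than in the mean of the other mock libraries, as were 9.96% of 18252 genes. Insig1 was at 109, 17.8 and 13.9 CPM in fl/fl and at 116 and 33.0 CPM in ΔK14 mock skin. Sqle, the squalene epoxidase, was at 137, 27.4 and 27.9 CPM and at 164 and 43.8 CPM. Abca1, Abcg1 and Lipa, 3 of 32 genes (9.38%), were under the other mock libraries by over 2-fold in both genotypes, a smaller share than the 13.8% of all genes. Abca1 was at 50.2, 188 and 218 CPM and at 61.8 and 156 CPM. Mvk, Ebp, Srebf1, Scap and Nr1h3 were also below the mean of the other mock libraries in both genotypes, by less than 2-fold in at least 1 of them. Proliferation genes summed to 1662 and 1692 CPM in replicate 1 and 408 to 827 CPM in the other mock libraries, and differentiated keratinocyte genes to 999 and 894 CPM against 7318 to 9316 CPM, and their part in these values was not tested.

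**Figure D4:**
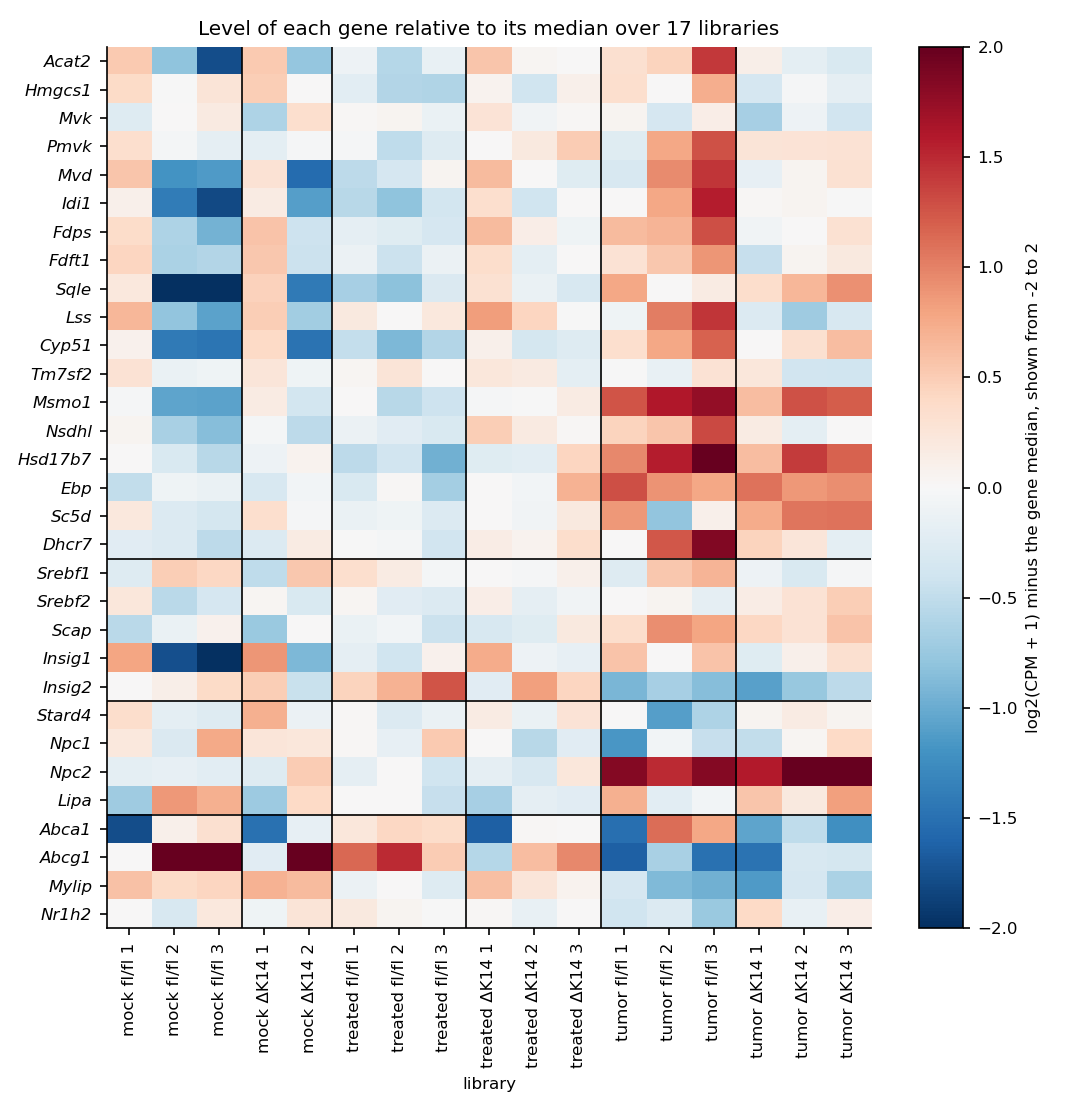
Log2(CPM + 1) of 31 genes in 17 libraries, minus the median of the gene, from blue (low) to red (high), ordered by role. Mock replicate 1 of both genotypes has most enzymes and Insig1 above the other mock libraries with Abca1 and Abcg1 below them, Npc2 is high in all 6 tumors, and fl/fl tumor replicates 2 and 3 have the highest Dhcr7 and Abca1.

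Without mock replicate 1, the fl/fl tumors had 14 genes called higher and 3 lower than mock skin, where 9.45% and 11.5% of all genes were. The risers were Npc2, Insig1 and 12 enzymes, from Acat2 at the start to Ebp near the end of the route. In ΔK14 mice, with a single mock library left, 7 were called higher and 2 lower, where 14.7% and 13.4% of all genes were. Sqle was among the enzymes with the most change there, at 2.44 in fl/fl tumors beside Msmo1 (2.63) and Idi1 (2.60), and at 2.06 in ΔK14 tumors beside Mvd (2.03). This Mvd value rests on 5 counts (1.80 CPM) in the single ΔK14 mock library. The ΔK14 mock library left out held 33 counts of Mvd (8.90 CPM). Leaving out mock replicate 2 or 3 instead left 0 genes called in fl/fl tumors.

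Treated skin against mock skin gave 0 calls among 31 genes in either genotype by edgeR, where 0% of all genes were called in each. At an unadjusted p under 0.05 there were 3 genes in fl/fl (913 of 16601 over all genes) and none in ΔK14 mice (763 of 15891). DESeq2 called 0 in both. The smallest p values in fl/fl mice were those of Mylip (-0.60 ± 0.16), Hmgcs1 (-0.66 ± 0.20), Insig2 (0.69 ± 0.25), Abcg1 (-1.39 ± 0.77) and Hsd17b7 (-0.33 ± 0.25). In ΔK14 mice they were those of Npc1 (-0.49 ± 0.27), Nsdhl (0.51 ± 0.30), Abcg1 (-1.17 ± 0.86), Mylip (-0.36 ± 0.27) and Ebp (0.46 ± 0.37). Without mock replicate 1, in fl/fl mice 5 genes were called higher and 1 lower, where 7.97% and 7.16% of all genes were. These were Mvd (1.18), Idi1 (1.13), Sqle (1.56), Lss (1.14) and Insig1 (1.88), and Abcg1 (-1.92).

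Between the genotypes, treated skin gave 0 calls among 31 genes by edgeR and by DESeq2, where 0.00616% of all genes were called. At an unadjusted p under 0.05, 7 of 31 genes were higher in ΔK14, as were 2.06% of all genes, and none lower. Of the enzymes 17 of 18 were above 0, with a median of 0.46 beside 0.02 for all genes. Every ΔK14 library was above every fl/fl library in 9 genes (5.76% of all genes) and below in 1, Abca1 (5.95% of all genes). Enzyme sums were 1329, 1021 and 1161 CPM against 956, 799 and 860 CPM. ΔK14 replicate 1, with the highest sum, had keratinocyte markers at 3204 CPM, against 5871 and 11475 CPM in ΔK14 replicates 2 and 3. Its Abca1 was at 55.9 CPM, against 178 and 175 CPM. The part of this library in the values was not tested. Without 1 library or under other settings, Lss ran from 0.07 to 0.53, Fdft1 from 0.09 to 0.37 and Hsd17b7 from 0.41 to 0.74. The smallest p values were those of Hsd17b7 (0.63 ± 0.24), Idi1 (0.56 ± 0.22), Nsdhl (0.45 ± 0.18), Cyp51 (0.47 ± 0.19) and Mylip (0.44 ± 0.18), each with an edgeR adjusted p of 0.897. The enzyme values thus had opposite signs in treated skin and in tumors, apart from Sqle and Sc5d (above 0 in both) and Tm7sf2 (below 0 in both), and none was called in either.

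In mock skin 0 of 31 genes were called between the genotypes by edgeR, as were 0% of all genes. None had an unadjusted p under 0.05 (253 of 15920 over all genes), and DESeq2 called 0. With n = 2 in ΔK14 mice and replicate 1 of both genotypes apart from the rest, the test cannot show that the genotypes were alike. The smallest p values were those of Npc2 (0.38 ± 0.32), Msmo1 (0.54 ± 0.46), Dhcr7 (0.31 ± 0.30), Stard4, a carrier of sterol between membranes (0.36 ± 0.39), and Sc5d (0.27 ± 0.32).

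Of 31 further genes of sterol, isoprenoid and SREBP handling, 30 were in the table. Tumors against treated skin gave 7 higher and 1 lower in fl/fl mice, where 7.5% and 10.5% of all genes were, and 6 higher and 0 lower in ΔK14 mice, where 10.5% and 15.5% were. In fl/fl mice the smallest p values among the called were those of Nus1, a subunit of the dolichol-making prenyltransferase (1.82 ± 0.23), Por, the reductase that supplies electrons to Cyp51 and Sqle (1.16 ± 0.16), Pgrmc1, a heme-binding membrane protein (1.12 ± 0.18) and Tmem97, a sterol-regulated binding partner of Npc1 (1.46 ± 0.25). In ΔK14 mice they were those of Nceh1, a cholesteryl ester hydrolase (3.75 ± 0.48), Nus1 (1.28 ± 0.18), Cyb5r3 (1.26 ± 0.19) and Por (1.55 ± 0.23). Nus1 and Por were thus called in both. Against mock skin 3 were higher in fl/fl and 5 in ΔK14 tumors (2.22% and 7.05% of all genes), with 0 lower. The genotype comparisons, treated against mock skin and the interactions gave 0 calls in this list.

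The 13 fatty acid synthesis genes, driven by SREBP-1 and LXR, gave 1 higher (Fasn, 1.19 ± 0.35) and 1 lower (Fads2, -2.03 ± 0.63) in fl/fl tumors against treated skin, where 7.5% and 10.5% of all genes were. In ΔK14 tumors 4 were lower, namely Acacb (-4.47 ± 0.71), Acss2 (-1.68 ± 0.28), Scd1 (-1.19 ± 0.25) and Elovl6 (-1.07 ± 0.30), where 15.5% of all genes were lower, and 0 were higher. The genotype comparisons gave 0 calls in this list as well.

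Since tristetraprolin binds AU-rich elements, each gene's longest 3′ untranslated region in the annotation was searched for TATTTAT. It was present in 7 of 32 genes (21.9%), against 27.4% of 21082 genes: Hsd17b7 (5 copies), Insig1 and Insig2 (2 copies each), and Sc5d, Srebf1, Mylip and Npc2 (1 copy each). TTATTTATT was in 1 of 32, Hsd17b7, against 7.58% of genes. The median length of these regions was 1487 bases in the 32 genes and 1085 bases in all genes. In ΔK14 over fl/fl tumors the log2 fold change of Hsd17b7 was -0.73 ± 0.35 and in treated skin 0.63 ± 0.24, neither of them called.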

How the data were processed

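RNA was measured in epidermal cells of 6 groups with 3 columns each. The authors prepared Ovation SoLo libraries and deposited whole-number read counts for each gene, not normalized. The submitters' processing notes name Trimmomatic 0.36, STAR 2.5.3, HTSeq 0.9.1, DESeq2 and the build mm10, while the deposited count table is named after featureCounts. Whether counting used strand and whether duplicates were removed is not given in the sources used here, so values of overlapping or near-identical genes are uncertain and p-values cover the spread between these samples, which the labels do not tie to single mice. Columns of the authors' own comparisons (fold changes and p-values) were not used. No column of values lay outside the design.

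The main tool was edgeR 4.0.16 under R 4.3.3, and DESeq2 1.42.0 served as an alternative. Each comparison used the libraries of its own groups, filterByExpr, TMM scaling and the two-sided quasi-likelihood F test, with Benjamini-Hochberg adjustment over all genes tested. Calls needed more than a fold change of 2 and an adjusted p below 0.05. Standard errors are the log2 fold change divided by the root of F. An interaction was a difference of 2 differences. CPM use TMM-scaled library sizes, and RPKM divide them by the length of merged exons in GENCODE vM21 (GRCm38, the same assembly as mm10). Promoter sequences are those of RefSeq on GRCm38.p6. The limit that a count of 0 allows was set at 3 counts, and it covers counting error only. The procedure was tested on simulated data.

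The 32 genes and all lists were chosen with earlier results of these data known. All 32 are accounted for. The text names each called gene, or the 5 with the smallest p where fewer than 5 were called, the highest and lowest level per role, and at most 4 genes of another list. The alternatives were DESeq2, edgeR's exact test, RLE scaling, no filter or a mean count of at least 10, a single fit of all libraries, a replicate block, no fold threshold, the identical columns as 2 libraries, and each library left out in turn. Leaving out mock replicate 1 of both genotypes, or fl/fl tumor replicates 2 and 3, and a term for mock replicate 1 were chosen after seeing the data.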

Additional observations from a re-analysis of the deposited data

How the results depend on the processing

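Numbers here are genes of the 32 that were called, with calls over all genes in brackets where they show how far a move was general. Between tumors of the genotypes (0 called [4]), DESeq2 [366] and edgeR's exact test [328] gave 1 each, no filter on low counts 3 [1393], and leaving out 1 library 0 to 9 [0 to 2613]. Tumors against mock skin in fl/fl mice (3 [632]) gave 11 with DESeq2 [2201], 9 with the exact test [2007], 9 with no filter [2595], 12 with a single fit of all libraries [3205] and 0 to 17 without 1 library [30 to 3277]. In ΔK14 mice (3 [2144]) they gave 6 with DESeq2 [2805], 6 with the exact test [3269], 6 with no filter [4154], 5 with a single fit [3074], 6 with the identical columns as 2 libraries [3619] and 0 to 9 without 1 library [101 to 4573], where a lone mock library is assumed to vary like the tumors. In fl/fl mice there were 0 without mock replicate 2 [30] or 3 [48] or tumor replicate 3 [69], 1 without tumor replicate 2 [77], 5 without tumor replicate 1 [630] and 17 without mock replicate 1 [3277]. In ΔK14 mice there were 0 without any 1 tumor, 9 without mock replicate 1 and 6 without mock replicate 2. Tumors against treated skin gave 6 to 16 in fl/fl mice (11 [2764]) and 3 to 5 in ΔK14 mice (4 [3973]) without 1 library, and 8 [5630] in ΔK14 mice with no fold threshold. The low end in fl/fl mice came without treated skin replicate 1 (6 [1106]) and the high end without fl/fl tumor replicate 1 (16 [4138]). Without treated skin replicate 2 or 3, or without fl/fl tumor replicate 3, there were 7. Treated against mock skin in fl/fl mice (0 [0]) gave 0 to 6 without 1 library [0 to 2587], and the interaction with treated skin (0 [2]) gave 3 with DESeq2 [230], 7 with no filter [1003] and 0 to 11 without 1 library [0 to 1352]. The cause of these moves was not tested. Across these alternatives 121 of 352 log2 fold changes took both signs, none of the 21 called ones among them: 25 of 32 between genotypes in mock skin, 6 in treated skin and 3 in tumors, 18 in fl/fl and 23 in ΔK14 mice for treated against mock skin, 6 and 14 for tumors against mock skin, 5 and 7 for tumors against treated skin, and 14 and 0 in the interactions with mock and treated skin. Of the genes named by rule these were 3: between genotypes in mock skin, Stard4 ran from -0.11 (without ΔK14 replicate 1) to 0.69 and Npc2 from -0.10 (without ΔK14 replicate 2) to 0.72, and Abcg1 in ΔK14 treated against mock skin from -1.98 to 0.92 (without mock replicate 2). The replicate numbers did not show a pairing in the comparisons with 3 pairs: none had every correlation of deviations over 0.1 (range -0.546 to 0.391). With 2 pairs, the mock genotypes had 0.569 and 0.782. ΔK14 treated skin against mock skin had 0.141 and 0.569, and ΔK14 tumors against mock skin 0.0943 and 0.124. In these ΔK14 comparisons replicate 3 had no partner and the 2 mock libraries gave mirrored values, so they cannot decide on a pairing. In none of the other comparisons did every library correlate best with its own number. With a replicate block, tumors against mock skin gave 2 calls in fl/fl [244] and 2 in ΔK14 mice [938]. Tumors against treated skin gave 9 in fl/fl [1831] and 4 in ΔK14 mice [3879]. Every other comparison gave 0 [0 to 110], with the 110 between genotypes in mock skin. Where genes of the 32 were called, calls over all genes were fewer than without the block. The genes were not all the same: the block dropped Msmo1 and Hsd17b7 (fl/fl against mock skin), Ebp and Mylip (ΔK14 against mock skin), Lss (ΔK14 against treated skin), and Nsdhl and Dhcr7 (fl/fl against treated skin), and added Abcg1 as lower in the first 3 of these. Depth limits Nr1h3 and Abcg1 most, whose tumor libraries hold at most 17 and 15 counts.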
